A study of Mus musculus with 6 samples.

Results

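The IL-2 and IL-15 receptor pathway is described here through 10 genes, found by symbol among the 55450 genes of the deposited table. They are the receptor chain genes Il2ra, Il2rb, Il2rg and Il15ra, the kinase genes Jak1 and Jak3, the transcription factor genes Stat5a and Stat5b, and the feedback inhibitor genes Cish and Socs2. All 10 passed the filter on low counts, with 13171 genes in all. The 6 bulk RNA-seq libraries came from lymphocytes sorted from mammary glands of mice in late pregnancy (E18.5), 3 from CD8 beta+ T cells and 3 from cells labelled DN (double negative) NK1.1+. The labels give no strain, genotype or treatment, do not say which 2 markers the DN cells lack, and do not say if a library holds 1 animal or several; the sample titles call both groups T cells, while the cell type label of the second says lymphocytes. The study asked whether unconventional lymphocytes of the mammary epithelium act on epithelial and basal cell differentiation, and the comparison here asks how transcripts of this pathway differ between the 2 sorted populations. Nothing in the labels says that the libraries of a group came from separate animals. The p-values therefore weigh a difference between the groups only against the spread among these libraries, which may be technical.

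IL-2 and IL-15 are cytokines that keep T cells and natural killer (NK) cells alive and drive their growth. Both signal through a shared pair of receptor chains, beta (Il2rb) and gamma (Il2rg). A private alpha chain is added, Il2ra for IL-2 and Il15ra for IL-15, and Il15ra mostly presents IL-15 from a neighbouring cell. JAK1 binds the beta chain and JAK3 the gamma chain. They phosphorylate STAT5A and STAT5B, which enter the nucleus and switch on genes, among them Cish and Socs2, whose products damp cytokine signalling. The same STAT5 proteins act downstream of prolactin in the milk-producing epithelium, where Cish and Socs2 are also STAT5 targets.

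Library totals ran from 7961360 to 14367299 counts. Levels are given as CPM, counts per 1000000 of the TMM-adjusted library size, where TMM is the default scaling of edgeR. A single count was worth 0.0722 to 0.13 CPM. Tests used the quasi-likelihood fit of edgeR, and p-values were adjusted by Benjamini-Hochberg over all 13171 genes, with a threshold of 0.05. Fold changes are DN NK1.1+ over CD8 beta+, with a standard error (SE) or 95% interval on the log2 scale. The labels were checked against markers of the sort. Cd8b1 was at 892 to 1007 CPM in CD8 beta+ and at 1.21 to 4.31 CPM in DN NK1.1+ libraries, and Cd8a, for the other CD8 chain, was at 852 to 1009 CPM and still at 151 to 174 CPM in the DN NK1.1+ libraries. Klrb1c, which encodes NK1.1, was at 30.8 to 41.8 and at 618 to 659 CPM. Cd3e, for a chain of the T cell receptor complex, was present in both groups (743 to 777 and 514 to 529 CPM). Ncr1, for the receptor NKp46 of NK cells and innate lymphoid cells, was at 0.289 to 0.65 CPM in the first group and at 252 to 293 CPM in the second, so the DN NK1.1+ libraries held transcripts of T cell and of NK cell genes.

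Of the 10 genes, 4 were higher in DN NK1.1+ libraries (Il2rb, Socs2, Il2ra and Cish) and 1 was lower (Il15ra). The other 5, Il2rg, Jak1, Jak3, Stat5a and Stat5b, did not pass the test. Over all tested genes 7.84% were called higher and 5.99% lower, or 13.8% in either direction. The groups did not overlap in 7 of the 10 genes, against 30.6% of all tested genes. The median log2 fold change of the 10 genes was −0.06, beside −0.0033 over all tested genes. The number of the 10 called higher depended on the libraries included: without CD8 beta+ replicate 1 it was 1 gene, Il2rb. It was 2 without CD8 beta+ replicate 2, without DN NK1.1+ replicate 1 or without DN NK1.1+ replicate 2. Over all tested genes the number called higher fell too, from 1033 to 681, 733, 792 and 738 in these 4 fits. Il15ra was called lower in each of these fits. In bulk samples such as these, fewer cells of a type and less RNA per cell cannot be told apart.

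**Figure D1:**
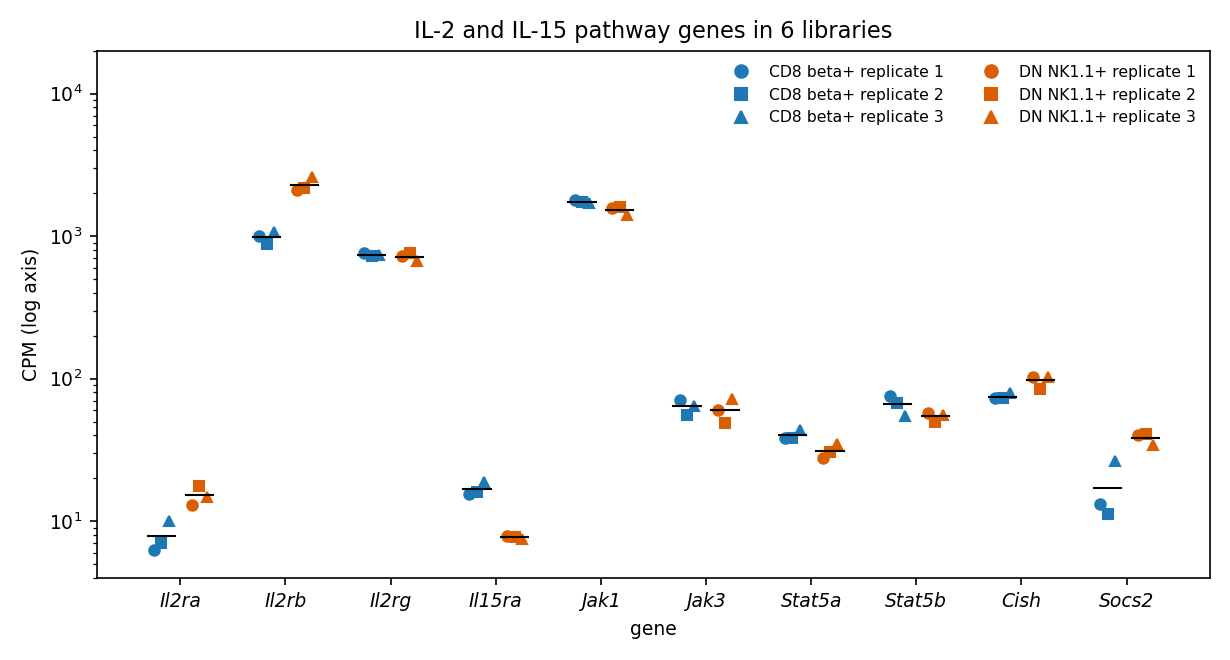
Level of each of the 10 pathway genes in CPM on a log axis, with 1 point per library (circle, square and triangle for replicates 1, 2 and 3) and a black line at the mean of each group of 3. Il2rb lies at 886 to 1068 CPM in CD8 beta+ and at 2096 to 2604 CPM in DN NK1.1+ libraries, while the Il2rg values of the groups overlap.

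STAT5 binds the palindrome TTCNNNGAA, whose reverse strand reads the same. RefSeq start-site windows on build GRCm38.p6 (250 bases before and 50 after a gene's start) were at hand for 8 of the 10 genes, in 11 windows. Only the Cish window held the motif, and it held it at 2 places. Among all 32851 windows of the table, 8.3% held it at least once and 0.457% at least 2 times. The stretch below, on the plus strand at chr9:107296654-107296683, is shown because it carries both copies, in capitals. They begin at bases 1 and 12 counted from the RefSeq start, and the stretch lies in the 5′ UTR of the GENCODE M21 transcript Cish-201. A match is a description of the letters and was not tested for binding.

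Cish: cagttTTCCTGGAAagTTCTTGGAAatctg

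The genes of the private alpha chains, Il2ra and Il15ra, are neighbours on the plus strand of chromosome 2, 12.1 kb apart with no annotated gene between them. They differed in opposite directions in these libraries, so the sequence just before each is shown, from chr2:11642542-11642791 for Il2ra and chr2:11705043-11705289 for Il15ra. Neither holds TTCNNNGAA, which says only that these letters are not in these windows.

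Il2ra: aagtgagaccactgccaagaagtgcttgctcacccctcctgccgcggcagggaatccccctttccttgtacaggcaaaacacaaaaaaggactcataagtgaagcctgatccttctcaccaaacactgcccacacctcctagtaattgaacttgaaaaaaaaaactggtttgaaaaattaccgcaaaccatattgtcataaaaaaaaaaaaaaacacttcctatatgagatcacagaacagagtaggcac

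Il15ra: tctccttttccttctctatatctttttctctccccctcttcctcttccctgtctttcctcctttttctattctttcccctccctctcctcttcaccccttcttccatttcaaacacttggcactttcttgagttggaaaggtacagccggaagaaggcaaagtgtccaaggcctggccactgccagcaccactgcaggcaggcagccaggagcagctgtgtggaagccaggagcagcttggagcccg

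Among the shared receptor chains the beta chain gene rose and the gamma chain gene did not. Il2rb (chromosome 15, 78479256 to 78495271, minus strand) was at 1001, 886 and 1068 CPM in the CD8 beta+ libraries and at 2096, 2163 and 2604 CPM in the DN NK1.1+ libraries. Every DN NK1.1+ value was above every CD8 beta+ value. The increase was 2.32-fold (log2 fold change 1.22, SE 0.114, adjusted p = 2.69e-06), and it rests on 7698 to 34326 counts per library. Il2rg (chromosome X, 101264378 to 101268255, minus strand), for the chain also used by the receptors of IL-4, IL-7, IL-9 and IL-21, was at 760.0, 724 and 736 CPM and at 722, 755 and 671 CPM. These values overlapped, and the log2 fold change of −0.05 had a 95% interval from −0.24 to 0.15 (adjusted p = 0.816). The whole interval lay below that of Il2rb, which ran from 0.97 to 1.46. The exons of Il2rg overlap those of Gm20489 on the same strand, and 27.5% of its 50-base windows are shared with that gene, which had 0 counts in all 6 libraries.

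The 2 alpha chain genes differed in opposite directions. Il2ra (chromosome 2, 11642807 to 11693193), whose product CD25 turns the receptor into its high-affinity form for IL-2, was at 6.24, 7.08 and 10.1 CPM in CD8 beta+ and at 12.9, 17.8 and 14.8 CPM in DN NK1.1+ libraries. The groups did not overlap, at low levels in both (48 to 212 counts per library). The increase was 1.94-fold (log2 fold change 0.96, SE 0.261, adjusted p = 0.0224). The call was lost without CD8 beta+ replicate 1 (adjusted p = 0.112), without CD8 beta+ replicate 2 (0.1) or without DN NK1.1+ replicate 2 (0.123). Over all alternatives its adjusted p ran from 0.00961 to 0.123 and its log2 fold change from 0.82 to 1.17.

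CD25 is abundant on regulatory T cells and on group 2 innate lymphoid cells, so their markers are given beside it. Foxp3, the defining factor of regulatory T cells, had 6 counts over the CD8 beta+ and 8 over the DN NK1.1+ libraries. Of the 2 other genes in that list, Ikzf2 rose and Ctla4 fell (16.4, 25.6 and 33.7 CPM against 6.12, 7.96 and 7.74 CPM). The summed level of the 3 was 53.4 to 75.8 CPM and 190.0 to 237 CPM, mostly Ikzf2. For group 2 innate lymphoid cells, Il5 and Il13 had 0 counts in all 6 libraries. Il1rl1 had 0, 15 and 0 counts in CD8 beta+ and 49, 11 and 9 counts in DN NK1.1+ libraries. It did not pass (log2 fold change 2.24, adjusted p = 0.297). Gata3, which many T cells express too, rose from 77.6 ± 3.92 to 107 ± 17.1 CPM (SD, n = 3), a call lost without any 1 of the CD8 beta+ libraries or without DN NK1.1+ replicate 2 (adjusted p up to 0.142), and the 4 genes summed to 75.0 to 83.2 and to 97.7 to 127 CPM. The part of these cells in the Il2ra result was not tested.

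Il15ra (chromosome 2, 11705290 to 11734317) fell. It was at 15.5, 15.9 and 18.9 CPM in CD8 beta+ and at 7.84, 7.79 and 7.51 CPM in DN NK1.1+ libraries. The 3 DN NK1.1+ values lay close together, with an SD of 0.18 CPM, and below all 3 CD8 beta+ values. The log2 fold change was −1.12 (SE 0.227, adjusted p = 0.00325), on 91 to 220 counts per library. The call held under all 16 alternatives, with adjusted p from 4.57e-04 to 0.0143. Il15ra is also expressed by macrophages and dendritic cells. Of 8 tested myeloid markers 2, Csf1r and Itgax, rose and the other 6 did not pass, beside 7.84% of all tested genes called higher. The list summed to 423 to 528 CPM in CD8 beta+ and to 606 to 834 CPM in DN NK1.1+ libraries. Itgax is also expressed by some NK and T cells, and without it, a sum added after seeing the data, the ranges overlapped (320.4 to 398 and 326 to 576 CPM). The part of myeloid cells in the Il15ra result was not tested.

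**Figure D2:**
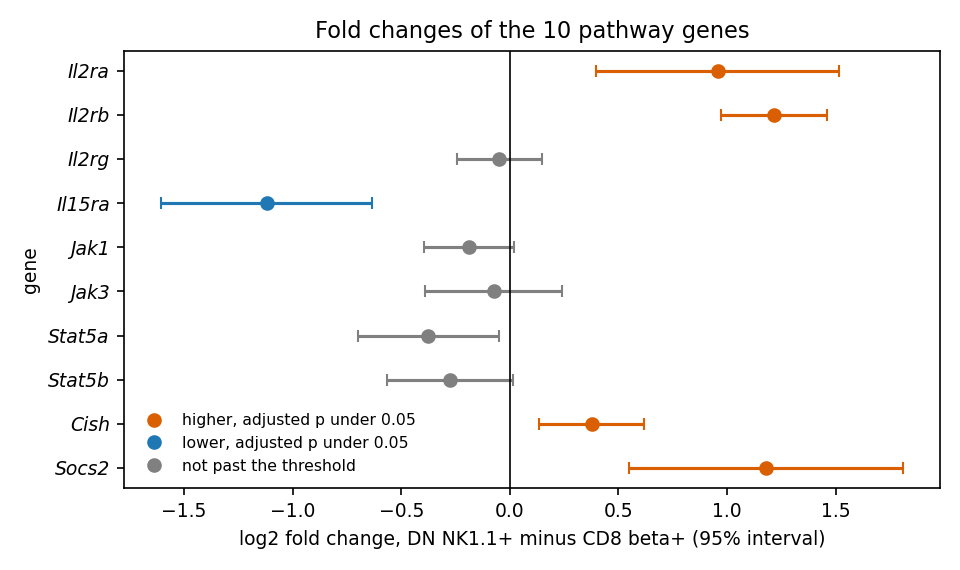
Log2 fold change of DN NK1.1+ over CD8 beta+ for the 10 genes, with 95% intervals from the edgeR fit. Orange marks higher and blue lower genes at an adjusted p under 0.05, and grey marks genes that did not pass: Il2rb stands at 1.22 and Il15ra at −1.12, with Il2rg near 0 at −0.05.

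None of the 4 signalling genes passed the test. Jak1 (chromosome 4, 101152367 to 101265282) was at 1802, 1727 and 1709 CPM in CD8 beta+ and at 1583, 1596 and 1414 CPM in DN NK1.1+ libraries. The groups did not overlap, with a small difference (log2 fold change −0.19, 95% interval −0.40 to 0.02, adjusted p = 0.251). Jak3 (chromosome 8, 71676296 to 71690575), whose product is expressed mainly in blood cells, was at 71.4, 55.8 and 64.3 CPM and at 60.2, 49.1 and 72.1 CPM, with overlapping groups. Its log2 fold change was −0.07 (95% interval −0.39 to 0.24, adjusted p = 0.823). Jak3 shares exons with Insl3 on the same strand, and 6.53% of the 50-base windows of its transcripts also occur in Insl3, which had 16 to 57 counts per library.

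Stat5a and Stat5b lie head to head on chromosome 11, 8.63 kb apart, and encode nearly identical proteins. Stat5a (100859351 to 100885169, plus strand) was at 38.5, 38.5 and 43.3 CPM and at 27.7, 30.3 and 34.7 CPM. The DN NK1.1+ values were all lower, and the log2 fold change of −0.37 had a 95% interval from −0.70 to −0.05 and did not pass after adjustment (adjusted p = 0.13). Stat5b (100780731 to 100850724, minus strand) was at 75.0, 67.9 and 54.7 CPM and at 57.7, 49.9 and 55.5 CPM. Its groups overlapped through CD8 beta+ replicate 3 (log2 fold change −0.28, 95% interval −0.56 to 0.01, adjusted p = 0.226). The same 608 windows of 50 bases occur in both genes, 8.21% of those of Stat5a and 11% of those of Stat5b, so counts may have been split between the pair and the value of either is uncertain to that extent. Stat5a also overlaps Stat3 on the opposite strand, and the use of strand in counting is not known.

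Both feedback inhibitor genes were higher in DN NK1.1+ libraries. Cish (chromosome 9, 107296026 to 107302784) was at 72.7, 72.7 and 79.1 CPM in CD8 beta+ and at 103, 85.0 and 103 CPM in DN NK1.1+ libraries. The groups did not overlap, and the increase was small, 1.30-fold (log2 fold change 0.38, SE 0.112, adjusted p = 0.0362). It lay near the threshold: the adjusted p was 0.0504 with upper quartile scaling and 0.0502 with limma-voom. It was 0.1 to 0.154 without CD8 beta+ replicate 1 or 2 or without DN NK1.1+ replicate 1 or 3, and 0.0269 to 0.154 over all alternatives. Cish overlaps the antisense genes Gm17040 and Gm17041, which had 0 to 5 and 0 to 2 counts per library.

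Socs2 (chromosome 10, 95385362 to 95417180, minus strand), for an inhibitor best known from growth hormone signalling, was at 13.1, 11.3 and 26.6 CPM in CD8 beta+ and at 39.9, 41.0 and 34.3 CPM in DN NK1.1+ libraries. CD8 beta+ replicate 3 lay between the other CD8 beta+ libraries and the DN NK1.1+ libraries, without overlap. The increase was 2.26-fold (log2 fold change 1.18, SE 0.284, adjusted p = 0.0178). The log2 fold change was 1.65 without CD8 beta+ replicate 3. The call was lost without CD8 beta+ replicate 1 (adjusted p = 0.088), DN NK1.1+ replicate 1 (0.0771) or DN NK1.1+ replicate 2 (0.0773), within a range of 4.24e-08 to 0.088 over all alternatives.

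Cish and Socs2 also respond to prolactin in luminal epithelium, so its markers are given beside them. The 10 luminal genes summed to 785, 495 and 653 CPM in CD8 beta+ and to 274, 762 and 1586 CPM in DN NK1.1+ libraries. These sums overlapped between the groups, and 1 of the 8 tested members, Epcam, rose, beside 7.84% of all tested genes. None of the 10 was at 0 in all libraries. Csn2, for beta-casein, led the list, at 446, 290.5 and 380.1 CPM in CD8 beta+ and at 139, 398 and 914 CPM in DN NK1.1+ libraries. Prlr, the prolactin receptor gene, had 1 to 10 counts per library. The part of epithelial RNA in the Cish and Socs2 results was not tested.

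A ratio of 2 genes within a library does not depend on how libraries are scaled. Il2rb had 1.32, 1.22 and 1.45 counts for each count of Il2rg in the CD8 beta+ libraries, and 2.90, 2.86 and 3.88 where the cells were DN NK1.1+. The groups did not overlap, and the log2 difference was 1.26. Il15ra had 0.0155, 0.0179 and 0.0177 counts for each count of Il2rb in the CD8 beta+ libraries. The DN NK1.1+ values were 0.00374, 0.0036 and 0.00288, a log2 difference of −2.33 without overlap. For both ratios the exact two-sided permutation p was 0.1, the smallest that 3 libraries against 3 allow, or 0.3 after adjustment over the 6 ratios examined.

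The other 4 ratios overlapped between groups. Il2ra to Il2rb was 0.00789 ± 0.00161 and 0.00669 ± 0.00134 (SD, n = 3, log2 difference −0.24, exact permutation p = 0.4). Stat5a to Stat5b was 0.624 ± 0.148 and 0.571 ± 0.0795 (exact permutation p = 0.8), and Jak1 to Jak3 was 27.6 ± 2.99 and 26.1 ± 6.44 (exact permutation p = 0.8). Cish to Socs2 was 5.53, 6.46 and 2.98 in the CD8 beta+ libraries, against 2.58, 2.07 and 3.02 in the others (exact permutation p = 0.2). For Cish to Socs2, CD8 beta+ replicate 3 lay among the DN NK1.1+ values. Adjusted over the 6 ratios, these 4 p-values were 0.4 to 0.8.

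**Figure D3:**
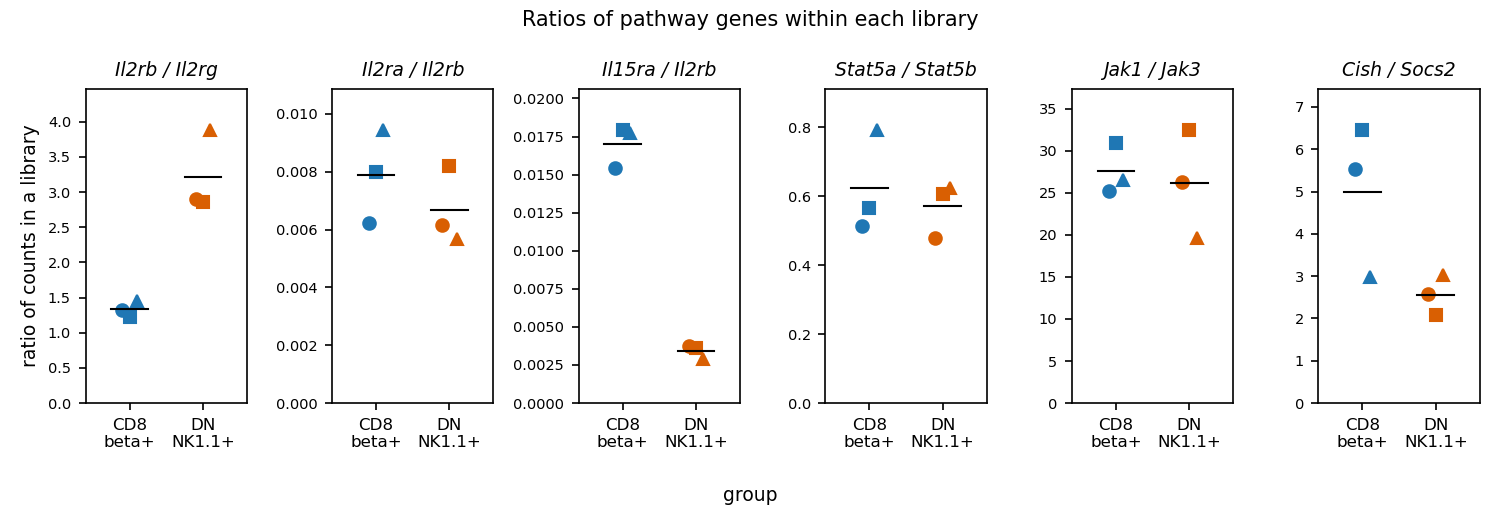
Ratio of the counts of 2 pathway genes within each library, 1 panel per ratio with its own linear axis from 0, with circle, square and triangle for replicates 1, 2 and 3 and a line at the group mean. The groups are apart for Il2rb to Il2rg (1.22 to 1.45 against 2.86 to 3.88) and for Il15ra to Il2rb, and overlap in the other 4 panels.

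Levels of different genes were compared per length, as RPKM (CPM per kilobase of the union of annotated exons). In CD8 beta+ libraries the order began with Il2rg (310.1 RPKM), Jak1 (242) and Il2rb (230), where Jak1 and Il2rb overlapped. In DN NK1.1+ libraries Il2rb stood first at 534 RPKM, above Il2rg (300.0) and Jak1 (212), with no overlap between these 3. Jak3, Stat5b and Cish followed in both groups at 9.82 to 15.1 RPKM as group means. In CD8 beta+ libraries these 3 overlapped. In DN NK1.1+ libraries Cish overlapped Jak3, and Jak3 overlapped Stat5b. Stat5a came next in both groups (5.62 and 4.33 RPKM), where it overlapped Socs2 in DN NK1.1+ libraries.

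The order below the first 3 genes depended on the length used. Per exon union, in CD8 beta+ libraries Il15ra (3.77 RPKM) stood above Socs2 (1.78) and Il2ra (1.37), which overlapped each other. In DN NK1.1+ libraries Il15ra was last at 1.74 RPKM, below Socs2 (4.03) and Il2ra (2.65), and none of these 3 overlapped. Of the summed RPKM of the 4 receptor chains, still per exon union, Il2rb took 40.1% to 44.2% in CD8 beta+ and 61.1% to 68.0% in DN NK1.1+ libraries. Il2ra took under 1% in each library, 0.196% to 0.377%. With the length of the longest protein-coding transcript, chosen after seeing the data, Cish was 26.3 and 34.1 RPKM and Socs2 was 7.65 and 17.3 RPKM. Il2rg was then 443 and 429 RPKM and Il2rb 235 and 545 RPKM, so the shares of the receptor chains depend on the length too. Il15ra was then 8.66 and 3.99 RPKM and Il2ra 1.77 and 3.44 RPKM, so Il15ra stood above Il2ra in both groups and Il2ra was last in DN NK1.1+ libraries too. Il15ra stood above Socs2 in CD8 beta+ and below it in DN NK1.1+ libraries with either length. Cish moved from rank 6 to rank 4 in CD8 beta+ libraries, above Jak3 (15.9 RPKM) and Stat5b (12.6). Socs2 moved from rank 8 to rank 5 in DN NK1.1+ libraries, above Jak3, Stat5b and Stat5a. The order of the first 3 genes was the same in each group, with Jak1 at 356 and Il2rb at 235 RPKM in CD8 beta+ libraries. The overlaps between genes given above are per exon union.

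Around these 10 genes, 70 further genes of the pathway were examined in 7 lists. The median log2 fold change of the 59 tested was 0.16. The ligands themselves were scarce. Il2 was at 0.754 to 3.72 CPM over the 6 libraries with overlapping groups (log2 fold change 0.21, 95% interval −1.44 to 1.86, adjusted p = 0.911). Il15 had 0, 3 and 1 counts in CD8 beta+ and 4, 12 and 18 counts in DN NK1.1+ libraries, too few to pass the filter. Il7 had 6 and 19 counts over the groups and Il21 had 6 and 0, while Il4 and Il9 had 0 in all libraries.

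Of 4 other receptor genes that use the gamma chain, 3 were tested and 1, Il21r, was lower, beside 5.99% of all tested genes. Il21r, for the receptor of IL-21, fell from 155 ± 4.37 to 109.6 ± 3.86 CPM (SD, n = 3, log2 fold change −0.50, adjusted p = 0.00156). Il7r, for a receptor that keeps resting T cells alive, was at 433, 394 and 116 CPM in CD8 beta+ and at 107, 106 and 70.6 CPM in DN NK1.1+ libraries. CD8 beta+ replicate 3 was close to the DN NK1.1+ libraries, as it was for Socs2, and Il7r missed the threshold (log2 fold change −1.73, adjusted p = 0.174). It passed without that library (adjusted p = 4.06e-06), with DESeq2 (0.0204), with limma-voom (0.0169) and with a fit that is not robust (0.00907), within a range of 4.06e-06 to 0.379. Among 6 STAT5-coupled receptors without the gamma chain, 2 were tested. Crlf2, for the receptor of the cytokine TSLP, was the highest at 11.1 ± 0.607 and 16.5 ± 3.07 CPM (adjusted p = 0.115).

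Among the other JAK and STAT genes, Stat3, which acts downstream of IL-6 and IL-21, rose from 202 ± 9.12 to 270.1 ± 16.9 CPM (SD, n = 3, log2 fold change 0.42, adjusted p = 0.00619), a call lost without CD8 beta+ replicate 2 (0.0522). Jak2, which serves the prolactin receptor, was at 224 ± 15.5 and 222 ± 21.2 CPM.

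Of 15 negative regulators tested, 3 rose and 1 fell, beside 7.84% and 5.99% of all tested genes. Socs5 rose from 13.2 ± 0.557 to 24.8 ± 2.13 CPM (log2 fold change 0.90, adjusted p = 0.00398). Sh2b3, for the adaptor LNK that restrains JAK signalling, rose from 45.6 ± 1.96 to 67.4 ± 1.95 CPM, and Ptpn1, for the phosphatase PTP1B, from 104 ± 8.19 to 146 ± 16.4 CPM. The call of Ptpn1 was lost without CD8 beta+ replicate 1 (adjusted p = 0.0621). Ptpn6, for the phosphatase SHP-1, fell from 213 ± 20.1 to 168 ± 14.4 CPM (adjusted p = 0.0355), a call that was lost under 6 of 16 alternatives. These were library size scaling (0.0672), the fit that is not robust (0.0519) and the fits without CD8 beta+ replicate 1 or 2 or DN NK1.1+ replicate 1 or 3 (0.0852 to 0.189). Socs1 and Socs3, the usual inhibitors of JAK kinases, did not pass. Socs1 was at 13.9 ± 1.099 and 16.9 ± 7.17 CPM (adjusted p = 0.579), and Socs3 at 42.3 ± 8.41 and 49.5 ± 2.998 CPM (adjusted p = 0.404).

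Of 15 genes of the PI3K and adaptor arm, 2 rose, a share near the 7.84% of all tested genes. Gab2, for a docking protein that links the receptor to PI3K, was at 1.69, 1.95 and 3.50 CPM in CD8 beta+ and at 15.8, 13.5 and 10.4 CPM in DN NK1.1+ libraries (log2 fold change 2.47, SE 0.354, adjusted p = 1.73e-04). Pik3r1, for the regulatory subunit of PI3K, rose from 571 ± 80.3 to 983 ± 58.7 CPM (log2 fold change 0.78, adjusted p = 1.52e-04).

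Of 17 genes listed as known STAT5 targets, 16 were tested, 6 rose and the other 10 did not pass the test, beside 7.84% of all tested genes called higher. Their median log2 fold change was 0.27. Nfil3, for a transcription factor of NK cell development, rose 3.16-fold, and the genes of the killing machinery Gzmb and Prf1 rose 2.88-fold and 2.54-fold. Furin, for a protein-cleaving enzyme, rose 1.70-fold. Pim1 and Xbp1 rose 1.47-fold and 1.41-fold. The survival genes Bcl2 (392 ± 18.2 and 445 ± 52.0 CPM, adjusted p = 0.309) and Mcl1 (301 ± 8.59 and 284 ± 18.7 CPM, adjusted p = 0.634) did not pass, nor did Myc (77.5 ± 10.7 and 83.7 ± 15.7 CPM, adjusted p = 0.706). These genes answer to many other signals, and their link to STAT5 in these cells was not tested.

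**Figure D4:**
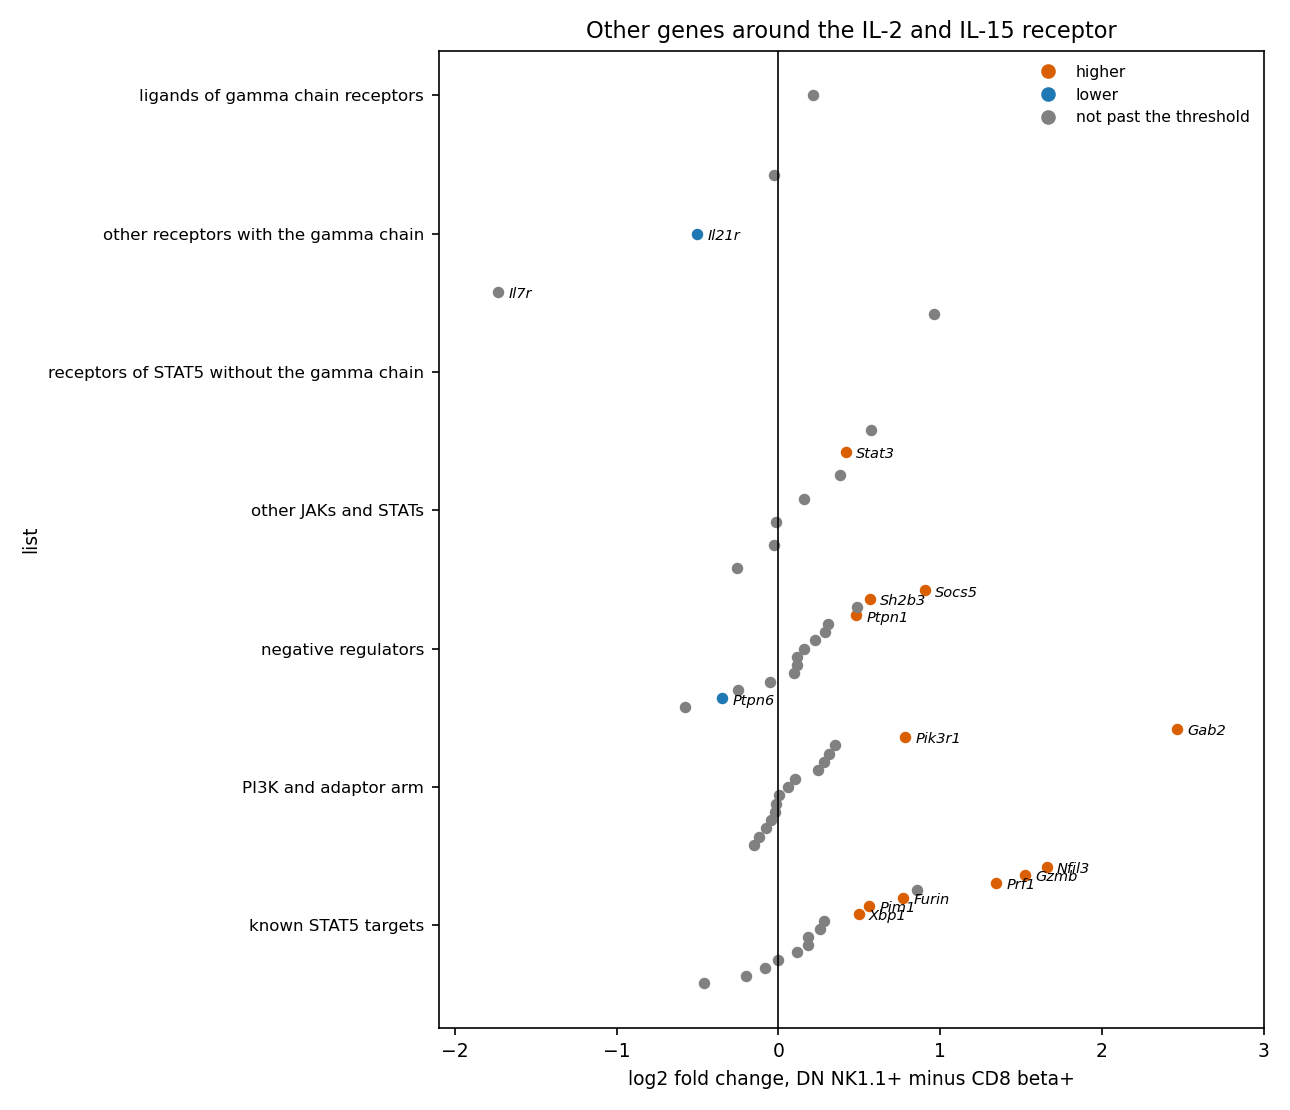
Log2 fold change of DN NK1.1+ over CD8 beta+ for the tested genes of the 7 lists around the receptor that are reported here, 1 point per gene, sorted by value within a list. Orange points are higher and blue points lower at an adjusted p under 0.05, grey points did not pass: Gab2 stands farthest right at 2.47, and Il7r is the grey point at −1.73.

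The genes whose profile over the 6 libraries was most like that of Il2rb were Syne2, Wls and Klhdc2. Likeness was the root mean square difference of log2 CPM after centring each gene, over 5977 genes with a mean of at least 20 CPM. The difference from Il2rb was 0.07, 0.08 and 0.1 for these 3. Syne2, for a protein of the nuclear envelope, was at 49.1, 43.6 and 52.7 CPM in CD8 beta+ and at 102, 105 and 112 CPM in DN NK1.1+ libraries.

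Markers of other cells were summed in the same libraries. Genes of basal epithelium summed to 12.6, 9.10 and 90.4 CPM in CD8 beta+ and to 6.47, 12.0 and 109.1 CPM in DN NK1.1+ libraries. Acta2 led them, and replicate 3 was highest in each group. B cell genes summed to 157 to 227 and to 248 to 298 CPM, and 1 of 4, Ighm, rose, beside 7.84% of all tested genes. Cd79a and Ms4a1 did not pass, with log2 fold changes of −1.38 and −1.81. Erythroid and stromal genes summed to 47.2 to 50.6 and to 51.2 to 100.6 CPM, where Pecam1 rose and Adipoq had 0 counts in all libraries. Without Pecam1, also added after seeing the data, these sums overlapped (9.32 to 27.7 and 3.27 to 35.4 CPM), with the top value in replicate 3 of each group. Hbb-bs and Hba-a1 did not pass, with log2 fold changes of −1.06 and −1.05. Cd74 led the myeloid list at 258 ± 15.6 and 319 ± 79.2 CPM (adjusted p = 0.298). It passed without DN NK1.1+ replicate 2 (log2 fold change 0.49, adjusted p = 0.0116). The part of these cells in the results was not tested.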

How the data were processed

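The authors' deposited gene values were read as estimated counts (expected counts), judged from the values: most are whole, some carry up to 2 decimals, and totals differ between libraries. Libraries were made with the Tecan Solo mouse kit, per the labels' protocols. For the aligner, counting tool, annotation and use of strand the sources used here give nothing. The submitters' processing notes list build mm10 and Cell Ranger 7.1.0, a single-cell tool. All 55450 IDs and symbols matched GENCODE M21, the source of coordinates and exon lengths. Promoter windows are from RefSeq.

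Expected counts were rounded. Genes passed edgeR's filterByExpr (minimum count 10, minimum total 15), and DN NK1.1+ was tested against CD8 beta+ with edgeR 4.0.16 under R 4.3.3, by its robust quasi-likelihood test (group alone, TMM, Benjamini-Hochberg over 13171 genes). SE and 95% intervals derive from its F statistic. The fit was also run on simulated data, whose outcome is not given here, and no result rests on it. Chi-square per degree of freedom was 9.46 to 25.7 between libraries of the same group, so none was a copy. Ratios of counts were compared with exact permutation tests.

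The 10 genes and all lists were chosen with earlier results of these data known. Named beyond the 10 are ligands with a count, per pathway list up to 4 called members of at least 5 CPM whose change was largest, the member of each list with the highest mean, and the 3 genes most like Il2rb. Other genes were named after their values were seen. Alternatives were other scalings, filters, DESeq2 1.42.0, limma-voom (limma 3.58.1), a replicate block and leaving out each library. The results of some listed genes are not reported here.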

Additional observations from a re-analysis of the deposited data

How the results depend on the processing

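Each of the 10 genes was refitted under 16 alternatives. Il2rb, Il15ra, Il2rg, Jak1, Stat5a and Stat5b kept their direction and their side of the threshold under all 16, with log2 fold changes of 1.11 to 1.27 for Il2rb; the calls of Il2ra, Cish and Socs2 that were lost stand beside their results. Leaving out 1 library at a time gave 1 to 4 of the 10 genes higher, and 681 to 1093 genes higher and 499 to 883 lower over the whole table, both lowest without CD8 beta+ replicate 1. In these fits Jak3 ran from −0.22 to 0.048 and turned positive without CD8 beta+ replicate 1 (0.0046) or DN NK1.1+ replicate 2 (0.048). The log2 difference of the Stat5a to Stat5b ratio ran from −0.24 to 0.072, positive without CD8 beta+ replicate 3 (0.072) or DN NK1.1+ replicate 1 (0.0076). That of Jak1 to Jak3 ran from −0.28 to 0.088, positive without DN NK1.1+ replicate 3. Il2 ran from −0.83 to 0.70, negative without CD8 beta+ replicate 3 (−0.072) or DN NK1.1+ replicate 3, Csn2 from −0.47 to 0.82, negative without DN NK1.1+ replicate 3, and Acta2 from −2.13 to 1.92, negative without CD8 beta+ replicate 1 or 2 or DN NK1.1+ replicate 3. Acta2 had 86, 112 and 737 counts in CD8 beta+ and 69, 102 and 1241 counts in DN NK1.1+ libraries, most of them in replicate 3 of each group. The cause of these changes of sign was not tested. Il2 had 9 to 49 counts per library, which limits its precision; it has no value at a minimum count of 50, and Acta2 has no adjusted p with DESeq2.

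The libraries share replicate numbers, and these correlations cannot settle whether same-numbered libraries were paired. Deviations of same-numbered libraries correlated at −0.05, 0.189 and 0.256 for replicates 1, 2 and 3. Replicates 2 and 3 of CD8 beta+ correlated best with their own number, and their crossed pairs were at −0.254 and −0.241. CD8 beta+ replicate 1 correlated best with DN NK1.1+ replicate 2 (0.106). The summed basal markers were highest in replicate 3 of each group (90.4 and 109.1 CPM). The summed luminal markers were highest in CD8 beta+ replicate 1 (785 CPM) and DN NK1.1+ replicate 3 (1586 CPM). The source of these patterns was not tested. With the replicate block 1137 genes were higher and 945 lower, and none of the 10 genes changed its call. Il2 turned to −0.064 and Acta2 to −0.102 under the replicate block.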
